A study of Homo sapiens with 39 samples.

Results

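Target genes of the hypoxia-inducible factors (HIF) were examined in HepaRG™ cells, an established human liver line whose progenitors mature into a mixture of hepatocytes and bile duct cells in culture. The genes were CA9, VEGFA, ADM, EGLN3, NDRG1, BNIP3, PDK1, ANKRD37, EGLN1 and KDM3A. They were picked by name as well-known HIF targets, at a time when other results of these data were known, and are 10 of the 20802 gene targets of the AmpliSeq panel. Each had at least 10 counts in all 39 libraries, as did 11562 targets in all.

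Differentiated cells were kept for 7 days after seeding, treated daily for 3 days and harvested 7 hours after the last treatment, at 55 hours of exposure. The RNA of 3 cultures per treatment group was pooled into 1 library, so the spread between cultures was not measured. The study classed 5 chemicals as DNA damage-inducing (DDI) and 5 as non-DDI. The DDI chemicals were aflatoxin B1 (AFB1; 0.25, 1 and 2.5 µM), cisplatin (CISP; 2, 5 and 10 µM), etoposide (ETP; 0.5, 2.5 and 10 µM) and 2-nitrofluorene (2NF; 10, 50 and 250 µM) in DMSO, and methyl methanesulfonate (MMS; 50, 100 and 200 µM) in water. The non-DDI chemicals were colchicine (COL; 0.05, 0.1 and 0.3 µM) in DMSO, and sodium chloride (NaCl; 1, 2.5 and 10 mM), 2-deoxy-D-glucose (2DG; 1.25, 5 and 10 mM), ampicillin trihydrate (AMP; 1, 3 and 10 mM) and ascorbic acid as its sodium salt (ASC; 1, 2 and 10 mM) in media. There were 9 vehicle controls (4 DMSO, 4 media and 1 water), and AFB1 and COL shared 1 of them. No library was made under low oxygen, so there is no positive control for the pathway.

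HIF is a pair of proteins, an oxygen-regulated alpha subunit (HIF1A or EPAS1) and the stable partner ARNT. In oxygen, prolyl hydroxylases encoded by EGLN1, EGLN2 and EGLN3 modify the alpha subunit, VHL binds it and it is degraded. The hydroxylases need oxygen, iron and 2-oxoglutarate, and ascorbate keeps their iron reduced. When hydroxylation fails, HIF collects in the nucleus and switches on genes for glycolysis, pH control, blood vessel growth and mitochondrial turnover. EGLN1 and EGLN3 are themselves HIF targets and form a feedback loop. In the liver, oxygen falls along the blood flow through the lobule, and HIF activity follows that gradient. HIF is controlled mainly through the stability of its protein, which RNA does not measure.

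HIF binds a short DNA motif, ACGTG or GCGTG. The 250 bases before the RefSeq start site (GRCh38.p14) were searched for both on either strand, so that they also read CACGT and CACGC, and the palindrome CACGTG counts once per strand. A promoter entry was found for 8 of the 10 genes, and 7 of those held at least 1 motif. Over all 35116 promoter entries, each counted by itself and not by gene, the share was 43.2%, and 1.36% held 5 or more. BNIP3 had 6 matches, ANKRD37 had 3, PDK1 had 2, CA9, ADM, EGLN1 and KDM3A had 1 each, and EGLN3 had none in this window. A match describes letters and is not evidence of binding. The stretches around the matches of CA9, BNIP3, PDK1, ANKRD37 and EGLN1 are shown as examples that differ in the number and spacing of motifs. Capitals mark the motifs, and each stretch is read 5′ to 3′ along the strand of the gene.
CA9 (chr9:35673890-35673927, plus strand): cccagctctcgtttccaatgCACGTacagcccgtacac
BNIP3 (chr10:131982003-131982086, minus strand): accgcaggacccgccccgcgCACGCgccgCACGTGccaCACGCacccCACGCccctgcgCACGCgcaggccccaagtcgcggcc
PDK1 (chr2:172556053-172556089, plus strand): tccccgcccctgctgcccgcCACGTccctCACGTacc
ANKRD37 (chr4:185396659-185396722, plus strand): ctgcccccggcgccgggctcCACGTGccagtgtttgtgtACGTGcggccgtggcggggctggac
EGLN1 (chr1:231422288-231422320, minus strand): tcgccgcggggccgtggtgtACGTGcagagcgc

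Library totals ran from 8504699 to 16425527 counts with a median of 11202013, and levels are given in RPM, which are counts scaled to the same total in every library. A principal component of what remained after chemical and vehicle were fitted, computed over 11552 genes without the 10 HIF targets, set 5 libraries apart from the other 34. They were the media controls of ASC and AMP, the DMSO control of ETP, CISP 2 µM and 2DG 1.25 mM (scores of -17.4 and below, next -10.4). Concentration was not fitted, so the component can hold differences between the concentrations of a chemical. The component took 28.4% of the residual sum of squares, and 4 libraries stood apart at its opposite end (scores of 21.5 and above, next 10.8), namely the media controls of NaCl and 2DG, 2DG 5 mM and CISP 10 µM. The NaCl series thus had a control from 1 end, and the ASC and AMP series controls from the other. Results that rest on these libraries are given with and without them.

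Values of treated libraries are given as log2 ratios of (RPM + 1) to the matched control, beside a control limit, which is the largest difference between any 2 controls of the same vehicle (for MMS, with its single water control, the larger of the DMSO and media limits). These ratios carry no test. Of the 300 ratios (10 genes in 30 treated libraries), 47 passed their limit, where 20.3% of all such ratios over the 11562 genes did. In the plot of all ratios NaCl 10 mM held the most, with 6 of 10 genes higher. MMS 100 µM and MMS 200 µM each held 4 lower (13.2% and 13% of all genes lower), and AFB1 2.5 µM held 1 higher and 3 lower (18.8% and 11.2%).

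**Figure D1:**
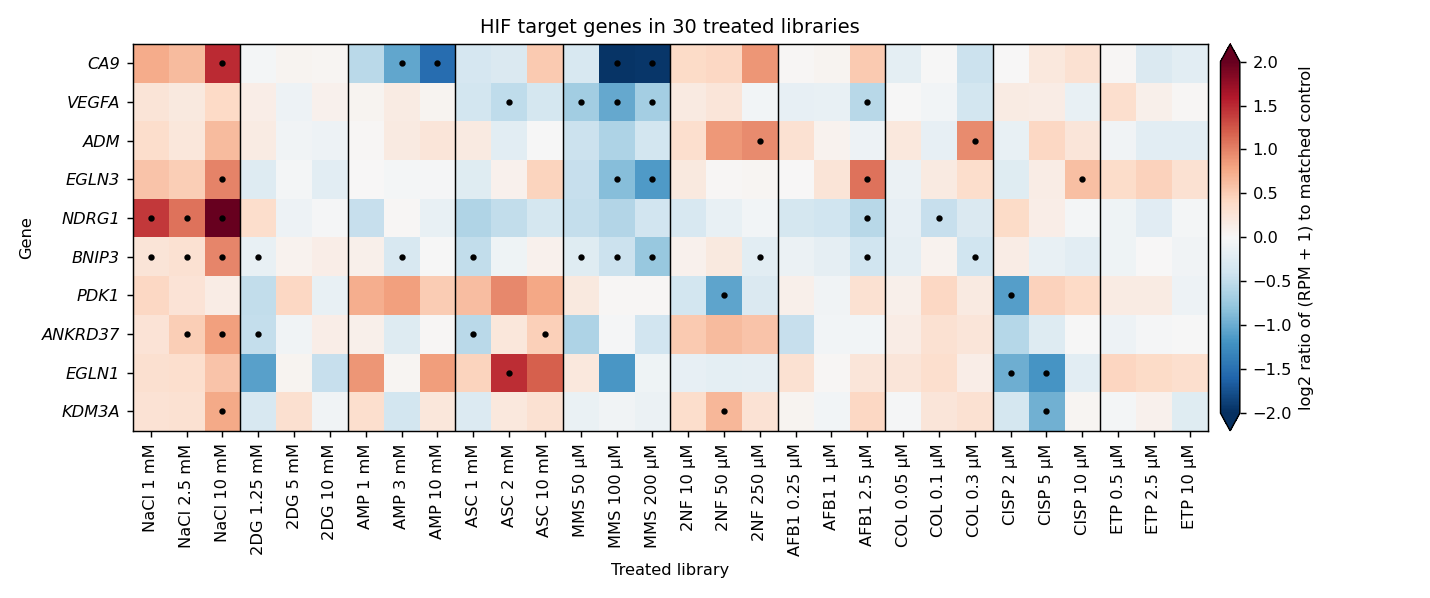
Log2 ratio of (RPM + 1) to the matched control for the 10 HIF target genes (vertical axis) in 30 treated libraries (horizontal axis), red for higher and blue for lower, with colours ending at 2 and -2 and dots on ratios past the control limit. NaCl is red throughout, with its darkest cell for NDRG1 at 10 mM (2.47), and MMS is mostly blue, with its darkest cells for CA9 at 100 and 200 µM (-1.96 and -1.94).

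NaCl was the chemical with the most HIF targets above their controls. All 10 ratios to the matched control were above 0 at each of its 3 concentrations, with a median log2 ratio of 0.34 at 1 mM, 0.32 at 2.5 mM and 0.79 at 10 mM. At 10 mM, CA9, EGLN3, NDRG1, BNIP3, ANKRD37 and KDM3A passed the control limit, 6 of 10, while 5.43% of all genes passed it in that direction. NaCl 10 mM was the highest of all 39 libraries for 8 of the 10 genes, the exceptions being ADM and PDK1. The salt already in the medium is not given in the study, and the part of added salt in this rise was not tested.

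NDRG1, a stress-induced gene with roles in growth restraint and lipid trafficking, rose most. It measured 101 RPM in the media control of NaCl, 269 RPM at 1 mM, 215 RPM at 2.5 mM and 563 RPM at 10 mM. The other 12 libraries in media lay between 121 and 194 RPM, and the control of NaCl was the lowest of the 16 for this gene. The 3 NaCl libraries thus stood above all others in media without overlap. The increase per concentration step (control, low, mid, high) was 0.59 ± 0.07 on the log2 scale (SE, adjusted p = 1.18e-05, edgeR quasi-likelihood test over 13812 genes), and the mean of the 3 concentrations was 1.26 ± 0.22 above the media controls (adjusted p = 0.0131), where 0.0213% of all genes were called. NDRG1 was the only HIF target called in that fit for NaCl.

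BNIP3, a mitochondrial protein that marks mitochondria for autophagy, measured 317, 381, 391 and 627 RPM from the control to 10 mM. Its 4 media controls lay within 286 and 317 RPM, the narrowest range among the 10 genes on the log2 scale. The trend was 0.36 ± 0.05 per step (SE, adjusted p = 0.000249, edgeR). EGLN3, the hydroxylase most strongly tied to HIF feedback, measured 162, 242, 227 and 323 RPM, and its trend was 0.40 ± 0.06 per step (adjusted p = 0.000866, edgeR). For both genes all 3 treated libraries exceeded their own control. All 3 also exceeded the highest other library in media, which was 2DG 10 mM at 346 RPM for BNIP3 and the control of 2DG at 196 RPM for EGLN3.

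The remaining 7 genes did not pass the test for NaCl. CA9, a cell-surface carbonic anhydrase that exports acid, measured 15.7 RPM in the control, 26.97 and 25.1 RPM at 1 and 2.5 mM and 46.3 RPM at 10 mM. The control of 2DG held 27.2 RPM of CA9, as much as the lower NaCl concentrations, and the CA9 trend was 0.40 per step (adjusted p = 0.130). KDM3A, a histone demethylase that itself uses oxygen and 2-oxoglutarate, measured 19.7, 24.4, 24.4 and 34.0 RPM (adjusted p = 0.0715). ANKRD37, an ankyrin-repeat protein, measured 7.72, 9.51, 11.3 and 14.4 RPM (adjusted p = 0.0755). EGLN1, the main oxygen sensor of this group, measured 86.4, 108, 109 and 129 RPM (adjusted p = 0.261). PDK1, which diverts pyruvate away from mitochondria, measured 11.9, 16.1, 14.5 and 13.3 RPM (adjusted p = 0.363).

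The pair of secreted signals had the smallest fitted slopes of the 10 genes. At 10 mM their log2 ratios to the matched control (0.39 for VEGFA and 0.63 for ADM) were still above that of PDK1 (0.15). VEGFA, the main growth factor for blood vessels, measured 85.9, 103, 98.3 and 113 RPM (trend 0.12 per step, adjusted p = 0.403). ADM, the vasodilator adrenomedullin, measured 45.2, 58.1, 53.3 and 70.5 RPM, but the control of NaCl was the lowest library in media. The other 12 libraries in media lay between 63.6 and 88.8 RPM, so that the 10 mM value was inside their range and the low and mid values were below it. Its trend was -0.03 per step (adjusted p = 0.921).

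**Figure D2:**
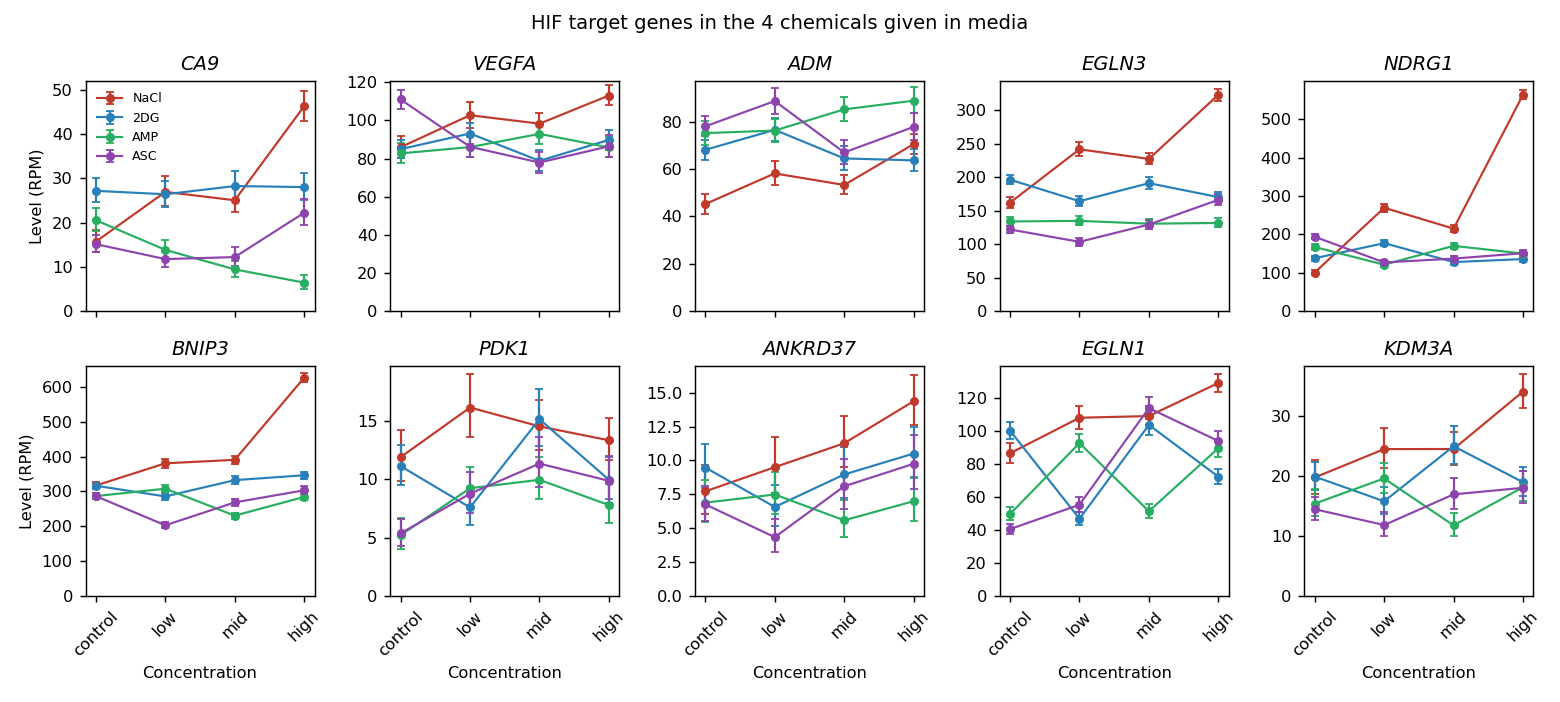
Level in RPM (vertical axis, from 0) of the 10 HIF target genes at each concentration step (horizontal axis) for the 4 chemicals given in media, with bars for the exact 95% binomial interval of each library, which covers counting error only. NaCl lies above the other lines at the high concentration for every gene but ADM. EGLN1 differs between the controls, from 40.4 RPM for ASC to 100.1 RPM for 2DG.

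Across all genes, 12 of 13812 passed the trend test for NaCl (0.0869%, 11 higher, or 0.0796%, and 1 lower), and 3 of them were HIF targets of the group of 10. A further list of HIF targets, mostly glycolytic, matrix and cell-death genes, had 42 members on the panel, of which 38 were tested. Of these, 3 were higher, and 31 had a slope above 0. The list's median was 0.11 per step, beside 0.36 for the 10 HIF targets and -3.97e-05 for all genes. PFKFB4, which sets the pace of glycolysis, measured 4.57 RPM in the control, 9.62 and 8.25 RPM at 1 and 2.5 mM and 25.3 RPM at 10 mM (0.72 ± 0.09 per step, SE, adjusted p = 1.18e-05, edgeR). TMEM45A rose by 0.36 per step (adjusted p = 0.0237) and FAM162A, a mitochondrial cell-death gene, by 0.25 per step (adjusted p = 0.00851). NQO1, a detoxifying reductase and NRF2 target, was the single gene that fell (-0.46 per step, adjusted p = 0.0246). It measured 6.50 RPM in the control of NaCl and 4.69 RPM at 10 mM, and the other 15 libraries in media lay between 5.56 and 16.3 RPM. The slope was fitted against all media controls and is not the fall from the matched control.

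The other 5 genes called for NaCl were in no list and were chosen after their values were seen. They were PPFIA4 (0.64 per step), NDUFA4L2 (0.74 per step), a HIF1-dependent mitochondrial protein, STC1 (0.39 per step), a secreted hormone, PNPLA3 (0.26 per step), a lipid droplet enzyme, and TNFSF14 (0.42 per step), a cytokine. Levels were low for PPFIA4 (9.20 RPM at 10 mM, 1.32 to 6.74 RPM in the other 15 libraries in media). The same held for NDUFA4L2 (6.23 RPM, and 0.709 to 3.65 RPM in those 15). The oxygen-sensing genes themselves were not called. HIF1A measured 307 RPM in the control and 332 RPM at 10 mM (-0.00 per step, adjusted p = 0.994), EPAS1 measured 131 and 104 RPM (-0.16 per step, adjusted p = 0.392), and VHL measured 47.4 and 62.0 RPM (0.07 per step, adjusted p = 0.694). Of the list of 15 HIF subunits and regulators tested, 0 were called, 2 had an unadjusted p under 0.05 and 7 had a slope above 0.

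Hepatocyte, cholangiocyte and other cell type markers were set beside these values. The 10 hepatocyte markers summed to between 36375 and 43243 RPM in the NaCl libraries and to between 26000 and 34636 RPM in the media controls, and 0 of the 10 were called in the NaCl trend. The bile duct markers KRT7, EPCAM and CFTR were under 10 counts in all 4 media controls and all 3 NaCl libraries, and so were the blood cell marker PTPRC and the endothelial marker VWF. The 7 cholangiocyte markers summed to between 1070 and 1464 RPM in the media controls and to between 1191 and 1394 RPM with NaCl. The part of the cell mixture in the NaCl result was not tested, and in a pooled bulk sample fewer cells of a type and less RNA per cell cannot be told apart.

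The NaCl result rested on the 10 mM library. Without it, 0 genes of the whole table were called for NaCl in either fit, and 3 of the 10 HIF targets became 0. With a block for each matched control, so that NaCl was judged against its own control alone, NDRG1 kept its trend (adjusted p = 0.00379) but not its mean effect (adjusted p = 0.294), while BNIP3 (adjusted p = 0.211) and EGLN3 (adjusted p = 0.225) did not pass. DESeq2 called 5 of the 10, adding ANKRD37 and KDM3A, and so did edgeR in number without the media control of NaCl. Without the 5 libraries set apart edgeR called 3. Without the 4 libraries at the opposite end, the NaCl control among them, NDRG1 (adjusted p = 0.000433), BNIP3 and EGLN3 kept their trends and 7 of the 10 HIF targets were called, but so were 215 genes higher and 465 lower of 13792, so the small background of the NaCl trend depended on those libraries.

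The difference between NaCl and the other 3 chemicals in media was then tested in the same fits, a contrast chosen after the values were seen. The NaCl trend exceeded the mean trend of 2DG, AMP and ASC for 6 of the 10 genes (background 1.55% of genes higher). It was larger by 0.60 per step for NDRG1, 0.50 for CA9, 0.39 for EGLN3, 0.35 for BNIP3, 0.32 for KDM3A and 0.29 for ANKRD37. The differences of VEGFA, ADM, PDK1 and EGLN1 did not pass. Of the 10 hepatocyte markers, TTR (0.49 per step) and APOA1 (0.35 per step) were higher in this contrast, 8 had a difference above 0, and their median was 0.20 beside 0.31 for the HIF targets. Their part in the result was not tested. As a mean over concentrations the difference passed for 5 of the 10 (background 0.893% of genes higher). In both fits these calls rested on the 10 mM library, and with a block for each matched control the NDRG1 trend alone was kept (adjusted p = 0.0117).

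ASC was of interest because ascorbate serves the HIF hydroxylases. No HIF target was called for ASC by edgeR or DESeq2 in either fit, and 0 of 10 had an unadjusted p under 0.05, where 1.24% of all genes passed the trend test and 0.673% the chemical effect test. The slopes of the 10 genes had a median of -0.00 per step, with 5 above 0. The widest was EGLN1 at 0.21 ± 0.12 per step (SE, adjusted p = 0.483), followed by ANKRD37 at 0.11 ± 0.09. For BNIP3, the most stable of the group among controls, the slope was -0.01 ± 0.05. The standard errors leave room for changes of the size seen for EGLN1, so the absence of a call does not show that the genes were unaffected.

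The direction of single ratios in ASC depended on which media control was used. EGLN1 measured 55.2, 114 and 93.8 RPM at 1, 2 and 10 mM, beside 40.4 RPM in the ASC control, 49.6 RPM in the AMP control, 86.4 RPM in the NaCl control and 100.1 RPM in the 2DG control. At 2 mM its log2 ratio was 1.47 against the matched control, past the limit of 1.29 as 7.79% of all genes were, and 0.39 and 0.18 against the controls of NaCl and 2DG. PDK1 measured 8.75, 11.3 and 9.86 RPM in ASC, above its matched control at 5.36 RPM and below the control of NaCl at 11.9 RPM at all 3 concentrations. NDRG1 measured 127, 137 and 151 RPM in ASC, below its matched control at 194 RPM and above the control of NaCl at 101 RPM.

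At 10 mM ASC, the 10 genes had a median log2 ratio of 0.37 against the matched control with 7 above 0, 0.08 against the control of NaCl with 7 above 0, and -0.08 against the control of 2DG with 4 above 0. At 1 mM the medians were -0.30, -0.52 and -0.67, with 3, 3 and 2 genes above 0. Those of 2 mM lay between -0.00 and -0.16 with 5, 4 and 2 above 0. At 1 mM BNIP3 (203 RPM) and ANKRD37 (4.33 RPM) were the lowest of the 16 libraries in media. ASC at 10 mM gave 22.3 RPM of CA9, inside the range of the media controls from 15.2 to 27.2 RPM. Leaving out the controls of ASC and AMP, 2 of the 5 libraries set apart, gave 0 calls for ASC again. Without the 4 libraries at the opposite end, the EGLN1 trend was 0.35 per step (adjusted p = 0.103) and no trend of the 10 passed.

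Among genes of iron and ascorbate handling, TFRC, the transferrin receptor for iron uptake, fell with ASC (-0.20 per step, adjusted p = 0.0184), and HMOX1, which frees iron from heme, rose (0.40 per step, adjusted p = 0.0194). These were 2 of the 10 tested in that list. FGB, a fibrinogen chain among the hepatocyte markers, rose (0.46 per step, adjusted p = 0.0208) and COL3A1, a collagen and a mesenchymal marker, fell (-0.70 per step, adjusted p = 0.0200). Of 14 other dioxygenases of the 2-oxoglutarate family tested (histone, DNA and collagen modifiers), 0 were called and 3 had an unadjusted p under 0.05. HIF1A (-0.00 per step), EPAS1 (-0.20 per step, adjusted p = 0.190) and VHL (-0.08 per step) did not pass.

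**Figure D3:**
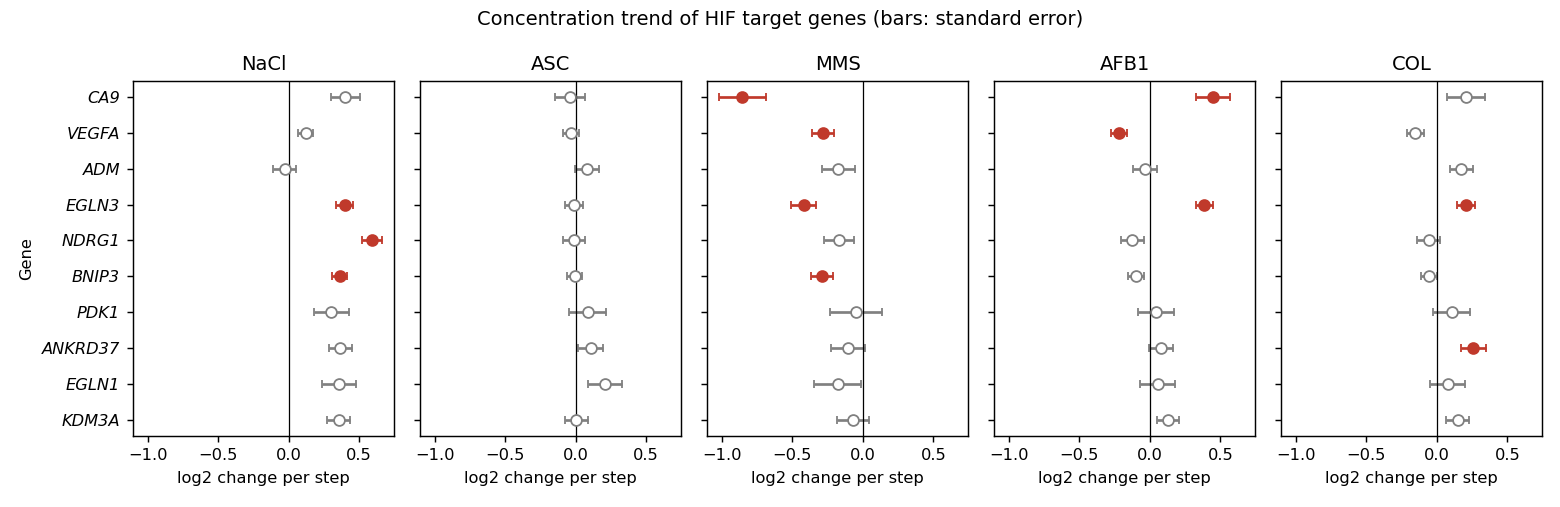
Log2 change per concentration step (horizontal axis) of the 10 HIF target genes (vertical axis) in the edgeR trend fit for NaCl, ASC, MMS, AFB1 and COL, with bars for the standard error. Filled red points passed an adjusted p of 0.05 over all genes: 3 for NaCl, 0 for ASC, 4 for MMS, 3 for AFB1 and 2 for COL.

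MMS is an agent that alkylates DNA, and several HIF targets fell with it. CA9 measured 25.9 RPM in the water control, 20.4 RPM at 50 µM, 5.89 RPM at 100 µM and 5.98 RPM at 200 µM. EGLN3 measured 178, 129, 98.5 and 81.0 RPM, and BNIP3 334, 281, 246 and 197 RPM. VEGFA measured 100.2 RPM in the control and 61.6, 48.6 and 61.9 RPM in the treated libraries. All treated libraries lay below the control for these 4 genes, and the lowest VEGFA, ADM, NDRG1 and EGLN1 of all 39 libraries were at MMS 100 µM.

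The trend was -0.85 ± 0.17 per step for CA9 (SE, adjusted p = 0.000762, edgeR), -0.42 ± 0.09 for EGLN3 (adjusted p = 0.00177), -0.29 ± 0.08 for BNIP3 (adjusted p = 0.0118) and -0.28 ± 0.08 for VEGFA (adjusted p = 0.0114). These 4 of 10 compare with 9.14% of all genes lower (13.5% in either direction). As a mean of 3 concentrations only VEGFA passed, at -0.90 ± 0.20 (adjusted p = 0.0215), where 1.4% of all genes were lower. ADM, NDRG1, PDK1, ANKRD37, EGLN1 and KDM3A did not pass. PDK1 (6.51, 7.56, 6.60 and 6.66 RPM) and KDM3A (22.2, 20.2, 21.1 and 20.4 RPM) stayed within the range of their DMSO and media controls.

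Of the 38 further HIF targets tested, 8 were lower with MMS and 1 was higher. P4HA1, a collagen prolyl hydroxylase (-0.39 per step), CA12, another carbonic anhydrase (-0.38 per step), ALDOC, a glycolytic aldolase (-0.38 per step), and FAM162A (-0.36 per step) fell most. Of the HIF subunits, ARNT fell (-0.21 per step, adjusted p = 0.0235), while HIF1A (0.14 per step, adjusted p = 0.278), EPAS1 (0.08 per step, adjusted p = 0.659) and VHL (0.17 per step, adjusted p = 0.246) did not pass.

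Cell type markers moved with MMS as well. The 10 hepatocyte markers summed to 27969 RPM in the water control and to between 4481 and 21490 RPM in the MMS libraries, and 6 of the 10 were lower, led by APOA1 (-0.94 per step). The 7 cholangiocyte markers summed to 1272 RPM in the control and to between 502 and 1018 RPM with MMS, and 3 of the 4 tested were lower, led by SPP1 (-0.61 per step). KRT7, EPCAM and CFTR were under 10 counts. In the integrated stress response, ATF4 (0.46 per step) and TRIB3 (0.42 per step) were higher. The part of these shifts in the HIF target result was not tested. Without the single water control all 4 trend calls were lost (CA9 adjusted p = 0.0670, VEGFA slope -0.02), and without MMS 200 µM BNIP3 was lost (adjusted p = 0.178). The mean effect on VEGFA was lost without MMS 100 µM (adjusted p = 0.131) or MMS 200 µM (adjusted p = 0.0791).

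The vehicles differed in CA9. In the 19 libraries in DMSO it ranged from 1.73 to 8.42 RPM with a median of 3.40, and in the 16 libraries in media from 6.47 to 46.3 RPM with a median of 21.4. The DMSO controls measured between 1.89 and 5.59 RPM and the media controls between 15.2 and 27.2 RPM, without overlap. The water control measured 25.9 RPM. Media exceeded DMSO controls by 2.58 ± 0.33 on the log2 scale (SE, adjusted p = 0.00285, edgeR, 4 against 4 libraries). Its counts were small in DMSO, down to 16 in a library.

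EGLN3 differed in the same direction, with 78.6 to 112 RPM in the DMSO controls and 122 to 196 RPM in the media controls, also without overlap (0.68 ± 0.16, adjusted p = 0.0366). The other 8 genes did not pass, and the 10 genes had a median difference of -0.03. The 2 genes compare with 3.68% of 13053 genes higher in media. CA9 kept its call with each control left out in turn. EGLN3 lost it without the DMSO control of CISP, 2NF or ETP and without the media control of NaCl, 2DG or AMP, with adjusted p up to 0.114. Without both the NaCl and 2DG controls, CA9 was kept, EGLN3 was not (adjusted p = 0.0575), and EGLN1 was lower in media (-0.95, adjusted p = 0.0114).

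**Figure D4:**
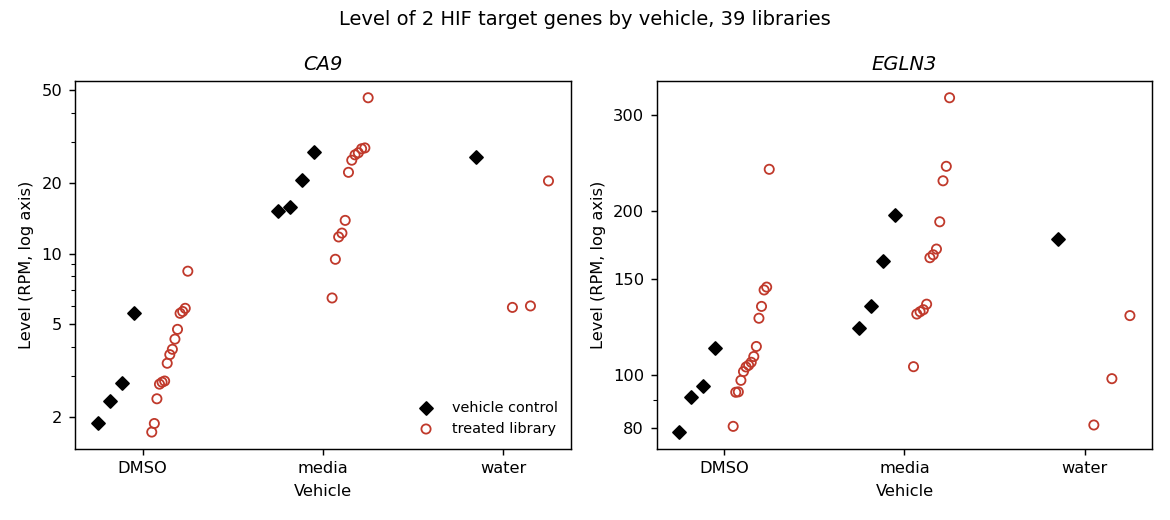
Level of CA9 and EGLN3 in RPM (vertical axis, log scale) in the 39 libraries by vehicle (horizontal axis), with diamonds for vehicle controls and circles for treated libraries. The DMSO controls (1.89 to 5.59 RPM of CA9) lie below the media controls (15.2 to 27.2 RPM), and the highest CA9 and EGLN3 are in NaCl 10 mM (46.3 and 323 RPM).

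Other genes moved with the vehicle. HIF1A was higher in media (0.64, adjusted p = 0.0320, edgeR), and CITED2, a HIF-induced inhibitor of HIF, was lower (-2.18, adjusted p = 0.0285, edgeR). CITED2 was near the floor, at 0.304 to 2.1 RPM in the 15 libraries in media other than NaCl 10 mM. Among further HIF targets ANGPTL4, ALDOA, PFKP and TMEM45A were higher and 0 were lower, of 37 tested. CYP3A4, a drug-metabolizing hepatocyte enzyme, was lower in media by 3.09 on the log2 scale and COL3A1 was higher by 2.46. The 10 hepatocyte markers summed to between 36072 and 50594 RPM in DMSO and to between 26000 and 34636 RPM in media controls, and of the 4 cholangiocyte markers tested 2 were higher, SPP1 among them, and SOX9 was lower, with a list median of 0.82. DMSO is also used to keep HepaRG™ cells differentiated. The vehicles served different chemicals, and vehicle and experiment cannot be told apart. The part of the cell mixture was not tested.

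In media, CA9 in the AMP set measured 20.6 RPM in the control and 13.9, 9.46 and 6.47 RPM at 1, 3 and 10 mM. The last was the lowest of the 16 libraries in media, and the ratios at 3 and 10 mM (-1.04 and -1.53) passed the limit of 0.80, as 11.4% and 9.24% of all genes did in that direction. The trend of -0.49 ± 0.12 per step had an unadjusted p of 0.000342 and an adjusted p of 0.547 in edgeR, where 0% of all genes were called for AMP. BNIP3 also passed its limit at AMP 3 mM (230.4 RPM beside 287 RPM in the control, log2 ratio -0.31) and measured 308 and 284 RPM at 1 and 10 mM. EGLN3 lay between 131 and 135 RPM in the 4 libraries of the AMP set.

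2DG blocks glycolysis after its uptake. CA9 measured 27.2 RPM in the 2DG control and 26.4, 28.3 and 28.1 RPM at 1.25, 5 and 10 mM. No HIF target was called by edgeR or DESeq2, 1 had an unadjusted trend p under 0.05 (CA9), and 0.00724% of all genes passed. EGLN1 measured 46.7 RPM at 1.25 mM, in 1 of the 5 libraries set apart, and 104 and 72.2 RPM at 5 and 10 mM.

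With AFB1, EGLN3 rose to 239 RPM at 2.5 µM, from 112 RPM in the control and 113 and 134 RPM at 0.25 and 1 µM. This was the highest EGLN3 of the 19 libraries in DMSO. CA9 measured 5.59, 5.66, 5.84 and 8.42 RPM over the same 4 libraries, and VEGFA 78.5, 70.0, 70.6 and 53.4 RPM. The trends were 0.39 ± 0.06 per step for EGLN3 (SE, adjusted p = 2.31e-05, edgeR), 0.45 ± 0.12 for CA9 (adjusted p = 0.0117) and -0.22 ± 0.06 for VEGFA (adjusted p = 0.0131). The 3 genes did not move one way, and 12.1% of all genes passed the trend test for AFB1 (6.26% higher and 5.84% lower).

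As a mean of the 3 concentrations only EGLN3 passed for AFB1 (0.75 ± 0.20, adjusted p = 0.0332), where 2.32% of all genes were higher. That call was lost with a block for each matched control, without the 5 libraries set apart (adjusted p = 0.100), without AFB1 2.5 µM and without the DMSO control of CISP, 2NF or ETP. HIF1A rose (0.20 per step, adjusted p = 0.0218), and of the 38 further HIF targets 3 rose (BHLHE40, ALDOA and PFKP) and KDM4C fell. Of the 10 hepatocyte markers, 7 fell, led by CYP3A4 (-1.68 per step), and their part in the result was not tested. All 3 trends were lost without AFB1 2.5 µM. With a block for each matched control CA9 (adjusted p = 0.607) and VEGFA (adjusted p = 0.128) were lost, and EGLN3 was kept.

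COL, which blocks microtubules, shared its control with AFB1. EGLN3 measured 104, 127 and 143 RPM at 0.05, 0.1 and 0.3 µM (0.21 ± 0.07 per step, SE, adjusted p = 0.0161, edgeR), and ANKRD37 10.6, 11.8 and 11.3 RPM beside 9.38 RPM in the control (0.26 ± 0.09, adjusted p = 0.0325). These are 2 of 10, where 9.9% of all genes were higher with COL, and both were lost with a block for each matched control. ANKRD37 was also lost without the 5 libraries set apart (adjusted p = 0.0759), without COL 0.1 or 0.3 µM and without the DMSO control of 2NF or of ETP, and EGLN3 was lost without COL 0.1 or 0.3 µM. ADM measured 154 RPM at 0.3 µM, the highest of all 39 libraries and past its control limit, as 21.7% of all genes were, beside 79.5 RPM in the control. HIF1A rose by 0.28 per step (adjusted p = 0.000549). Of the further HIF targets, IGFBP1, ANGPTL4 and PFKP rose (0.85, 0.77 and 0.77 per step) and DDIT4 fell (-0.66 per step), so that list did not move one way, and 7 hepatocyte markers fell.

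2NF, CISP and ETP gave no call among the 10 genes by edgeR or DESeq2, where 16.1%, 0.767% and 0.507% of all genes passed the trend test and 6.32%, 0.0284% and 0.00709% the chemical effect test. The numbers of genes with an unadjusted trend p under 0.05 were 1, 2 and 1. ADM in the 2NF set measured 59.3, 75.4, 109 and 115 RPM from the control to 250 µM, and its ratio at the high concentration (0.94) passed the limit of 0.92, in a library where 18.8% of all genes did. In the CISP set 5 ratios passed a limit. EGLN3 was higher at 10 µM, with 145 RPM beside 95.7 RPM in the control (0.60, as 9.38% of all genes were). The others were lower, namely EGLN1 (-0.97) and PDK1 (-1.11) at 2 µM, where 21.9% of all genes were lower, and EGLN1 (-1.17) and KDM3A (-0.96) at 5 µM, where 22.3% were. CISP 2 µM is 1 of the 5 libraries set apart.

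The 5 DDI and 5 non-DDI chemicals were compared at the high concentration, which is the question the study was made for. No HIF target was called by edgeR or DESeq2, 0 of 10 had an unadjusted p under 0.05, and 0.0515% of 13602 genes passed. The median difference was -0.34 on the log2 scale with 1 of 10 above 0. Among the DDI chemicals the median ratio of the genes to the matched control ran from -0.38 (MMS) to 0.09 (AFB1). Among the non-DDI chemicals it ran from -0.04 (2DG) to 0.79 (NaCl). The DDI chemicals were mostly in DMSO and the non-DDI chemicals mostly in media, and the part of single chemicals was not tested. The smallest unadjusted p was that of BNIP3 (-0.46 ± 0.23, SE, adjusted p = 0.664, edgeR). CA9 differed by -0.00 ± 0.73, the widest error of the 10.

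EGLN1 varied among the libraries with the first residual component. Its median was 49.6 RPM (40.4 to 66.0) in the 5 libraries set apart and 89.6 RPM (36.5 to 129) in the other 34. Low EGLN1 was not limited to those 5, since MMS 100 µM measured 36.5 RPM, CISP 5 µM 49.2 RPM and AMP 3 mM 51.3 RPM. The component was found in the residuals of these libraries without the 10 genes, and these levels are given as a description.

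**Figure D5:**
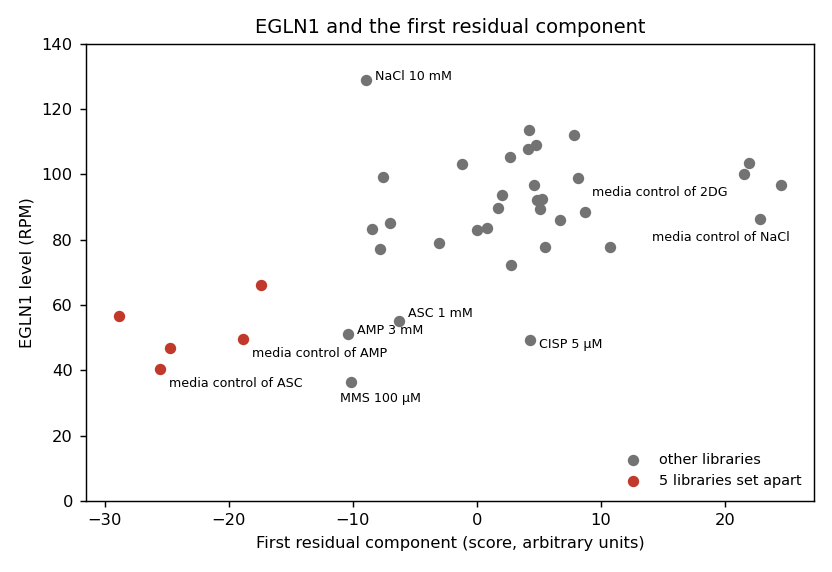
EGLN1 level in RPM (vertical axis) against the score of each library on the first residual component (horizontal axis, arbitrary units), with the 5 libraries set apart in red. Those 5 lie between 40.4 and 66.0 RPM, the media controls of ASC and AMP among them, while the media controls of NaCl and 2DG lie at the other end with 86.4 and 100.1 RPM.

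The genes outside all lists whose 30 log2 ratios were most like the median of the 10 HIF targets were TLE2 (Pearson r 0.79), DUSP1 (0.75), PIM1 (0.74), EDN1 (0.73) and DTNA (0.72), over ratios that share controls and library depth. In NaCl 10 mM, DUSP1, a phosphatase of stress kinases, measured 2937 RPM beside 1323 RPM in the control, and EDN1, the vasoconstrictor endothelin, 50.5 RPM beside 31.8 RPM.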

How the data were processed

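RNA of 39 treatment groups was profiled with the AmpliSeq human transcriptome panel. The authors aligned the reads to the panel (hg19), pooled 5 chips by barcode and deposited counts per amplicon without normalization. They also deposited RPM, each count scaled to its library total. Of 20812 rows in each table, 10 were spike-in controls with no counts and were left out, and 6 annotation columns were not used. With 1 amplicon per gene, levels were compared between libraries and not between genes.

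Groups and matched controls came from the sample labels, and the DDI classes from the study's text. The 10 genes and all lists were chosen with earlier results of these data known. Ratios used log2(RPM + 1). Counts were tested with edgeR 4.0.16 in R 4.3.3 (TMM, filterByExpr, quasi-likelihood, Benjamini-Hochberg over all genes, threshold 0.05). The chemical effect and concentration trend fits held 39 libraries with vehicle as a term (26 residual degrees of freedom), the class fit 19 libraries with a block for each matched control (8), and the vehicle fit 8 libraries (6). Concentrations of a chemical thus stand in for replicates, and p-values measure the spread between libraries, which may be technical. Chemicals of 1 vehicle share controls.

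The fits were tested on simulated counts with 200 changed genes in NaCl. The chemical effect test called 88% of 2-fold and 99% of 4-fold changes over 13803 genes, with 11 unchanged genes called. The trend test called 64% and 98% of such changes over 13688 genes, with 4 unchanged genes called. Only well-covered genes were changed, and the simulated counts held no vehicle differences and no residual component shared between genes. These shares are therefore not the power of the real fits. In the real chemical effect fit for NaCl, EGLN3 at 0.82 ± 0.20 on the log2 scale (SE) was not called (adjusted p = 0.369, edgeR). Named genes were all 10 HIF targets, HIF1A, EPAS1 and VHL, at most the 4 called genes with the largest change from each other list in a described comparison, and the 5 genes most alike. Alternatives were DESeq2 1.42.0, other size factors and filters, a pseudocount of 0.1, a block for each matched control and each library left out. Intervals are exact binomial at 95% and cover counting error only, since reads carry no molecular identifiers. Promoters are RefSeq entries of GRCh38.p14, and no hg19 coordinates were used here. Tables were made in Python 3.11.15 with pandas 2.3.3 and figures with matplotlib 3.10.9.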

Additional observations from a re-analysis of the deposited data

Results flagged for a closer look

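Of 20 groups of 4 controls (10 genes, DMSO and media), 1 held a library far from the others, where chance would give about 1 in 20. VEGFA measured 110.9 RPM in the media control of ASC, beside 82.7 to 85.9 RPM in the other 3 media controls. Against it, all 3 ASC libraries (77.9 to 86.4 RPM) were lower. VEGFA at 2 mM passed the control limit, as 15.9% of all genes did in that direction.

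The response to NaCl differed from the mean response to the other 3 chemicals in media by a test of that difference (edgeR, adjusted over all genes), in a contrast chosen after the values were seen. As a mean over the concentrations the difference on the log2 scale was 1.31 for NDRG1, 1.06 for CA9, 0.89 for EGLN3, 0.75 for BNIP3 and 0.72 for KDM3A, where 0.893% of genes were higher. Per concentration step it was 0.60 for NDRG1, 0.50 for CA9, 0.39 for EGLN3, 0.35 for BNIP3, 0.32 for KDM3A and 0.29 for ANKRD37. All of these calls were lost without NaCl 10 mM, and all but the NDRG1 trend were lost with a block for each matched control. Without the 5 libraries set apart the mean differences of CA9 (adjusted p = 0.0572) and KDM3A (adjusted p = 0.0504) did not pass, and without the 4 at the opposite end that of CA9 did not (adjusted p = 0.0505). With library totals as the only scaling the CA9 mean difference (adjusted p = 0.0534) and the ANKRD37 trend difference (adjusted p = 0.0687) did not pass, nor did the latter with no filter (adjusted p = 0.0661). The CA9 mean difference was also lost without any 1 of the NaCl or 2DG libraries, ASC 1 or 2 mM, or AMP 3 or 10 mM (adjusted p 0.0527 to 0.462), and that of KDM3A without NaCl 1 or 2.5 mM, ASC 1 mM, AMP 3 mM or 2DG 1.25 mM. The ANKRD37 trend difference, at an adjusted p of 0.0491, was lost without any 1 of the NaCl or AMP libraries, 2DG 5 or 10 mM, ASC 2 mM or the media control of ASC or AMP. The KDM3A trend difference was also lost without NaCl 2.5 mM or 2DG 10 mM.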

How the results depend on the processing

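The chemical effect fit called 3 gene and chemical pairs of 100 among the HIF targets, 1 with a block for each matched control, and 2 to 5 with 1 library left out (5 without MMS 50 µM). It called 7 without the 4 libraries at the positive end of the residual component, an alternative chosen after seeing the data, and the trend fit then called 16. The trend fit called 12, 7 with that block, 14 with DESeq2 and 9 to 14 with 1 library left out. By chemical, between 0% (AMP and 2DG) and 9.73% (COL) of all genes were called in the main chemical effect fit. In the main trend fit the share ran from 0% (AMP) to 20.3% (COL), so these pooled counts are not read as an excess. The vehicle fit called 2, and 1 to 2 with 1 control left out. The class fit called 0 in every alternative run. Ratios past the control limit numbered 47, or 48 with the mean of all controls of the vehicle. For NaCl, DESeq2 called 24 genes higher and 17 lower in the trend fit where edgeR called 11 and 1, the block left 5 and 1, and without the media control of NaCl 37 and 34 were called. The NDRG1 mean effect of NaCl was lost with the block, without NaCl 10 mM, without the 2DG control and without the AMP control. Without the 4 libraries at the positive end, 346 genes were called higher and 300 lower for NaCl in the chemical effect fit, and 215 higher and 465 lower in the trend fit. No called value changed direction. Among values that were not called, the mean effects in ASC without the ASC and AMP controls changed sign for EGLN1 (0.38 to -0.06), PDK1 (0.28 to -0.17) and NDRG1 (-0.10 to 0.24), and the class difference of EGLN3 crossed 0 (0.01 to -0.17 with vehicle as the term). Other size factors moved the median of all genes by under 0.1 (log2). The chemical effect of MMS could not be fitted without its only control. No paired analysis was possible because replicate numbers name libraries in accession order and pair nothing. Low counts limit CA9 in DMSO, PDK1 and ANKRD37, and outside the 10 genes CITED2, PPFIA4 and NDUFA4L2.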
